A study of Ovis aries with 3 samples.

Results

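Insulin-like growth factors (IGFs) and the proteins that bind them were examined in RNA of extracellular vesicles released by sheep conceptuses. The rule took rows of the deposited table named IGF1, IGF2, IGF1R or IGFBP1 to IGFBP7, whatever their level. Of the 10 symbols, 8 had a row, and these 8 are among 25197 rows in all. IGFBP5 and IGFBP6 had no row under those spellings, but the table holds rows spelled IGFBP-5 and IGFBP-6, whose descriptions name the same genes. They are given separately, as a description. No row without a symbol was described as an insulin-like growth factor, its receptor or its binding protein.

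IGF1 and IGF2 are secreted peptides that promote growth and survival through IGF1R, a receptor tyrosine kinase related to the insulin receptor. The binding proteins IGFBP1 to IGFBP6 hold IGFs with high affinity and set how much ligand reaches the receptor, and IGFBP7 is a relative with weaker IGF affinity. IGFBP1 also carries an Arg-Gly-Asp motif through which it can bind integrins. In the sheep uterus, IGFBP1 and IGFBP3 are known as products of the luminal epithelium that faces the elongating conceptus.

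The study held 3 libraries of 1 group, without a control group, and they are called libraries 1, 2 and 3 in the order of the labels. Each came from vesicles that day 14 conceptuses, the embryo with its extraembryonic membranes, had shed over 24 h into 10 ml of medium. The medium contained 700 nM insulin and 10% fetal bovine serum depleted of exosomes, and vesicles were recovered with a precipitation reagent, per the labels' protocols. Which animal gave which library is not in the labels, and technical variation may be part of the differences between libraries. RNA of the conceptus cells or of unconditioned medium was not analysed here.

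Values are RPKM-type, meaning reads scaled for gene length and library depth, so levels of different genes can be set side by side. A gene was counted as detected where every library gave it at least 1. The summed value was 17480.7 in library 1, 40060.3 in library 2 and 9531.8 in library 3. Read depth is not given, but the steps between values of U6 small nuclear RNA copies put 1 read at about 0.0422, 0.0541 and 0.0447 in libraries 1, 2 and 3 for a gene 10 times as long as U6. With 1 decimal in the file, a listed 0.1 is then only a few reads in such a gene, and a listed 0 does not show that the transcript was lacking. Of general genes named after their values were seen, TBP, a basal transcription factor (0.4, 0.4 and 0), and POLR2A, the large subunit of RNA polymerase II (0.1, 0.1 and 0.2), stood at or near 0. Others did not, such as the glycolytic enzyme PGK1 (1.2, 6.7 and 2.2) and the ribosomal protein row RPLP0_1 (58.2, 136.7 and 23.3).

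IGFBP1 was the family's leading transcript in every library and the only one of the 8 rows detected in all 3. Its row (ENSOARG00000012900) stood at 5.6, 13.3 and 2.2 in libraries 1, 2 and 3, a mean of 7.03 ± 5.69 (SD, n = 3). Library 2 was the highest and library 3 the lowest, and without library 2 the mean was 3.9. The count of 1 in 8 rows is 12.5%, against 3.89% of all rows of the table. The protein accession in the row's description matched RefSeq's IGFBP1 entry and no other.

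Within each library IGFBP1 lay near the top of the table without being among the leading genes. It was higher than 98.0%, 97.9% and 93.9% of the rows above 0 in libraries 1, 2 and 3. Its rank among the 18262 rows with a symbol was 195, 231 and 549, so it stood lower in library 3 than in the other two by rank as well as by value. By mean it was number 211 of the 729 rows with a symbol that were detected in all 3 libraries.

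The 6.05-fold range of IGFBP1 between libraries narrowed when each library was scaled to itself. In TPM-type units, for which the values of a library are rescaled to sum to 1000000, IGFBP1 took 320, 332 and 231 in libraries 1, 2 and 3 (294 ± 55.4, SD, n = 3), a range of 1.44-fold. The 981 detected rows had a median range of 2.60-fold on this scale, and 9.68% of them had a smaller one than IGFBP1. On the deposited scale the median range was 3.68-fold and 73.7% had a smaller one. The 2 highest rows of the table, both without a symbol, held 13.8%, 13.9% and 2.62% of the sums. Without them IGFBP1 took 372, 386 and 237 TPM-type units, a range of 1.63-fold. As a multiple of the median over detected rows it was 1.81, 1.93 and 0.88, a range of 2.19-fold, so the size of the library difference depends on the scale while library 3 is lowest on all 4 scales.

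**Figure D1:**
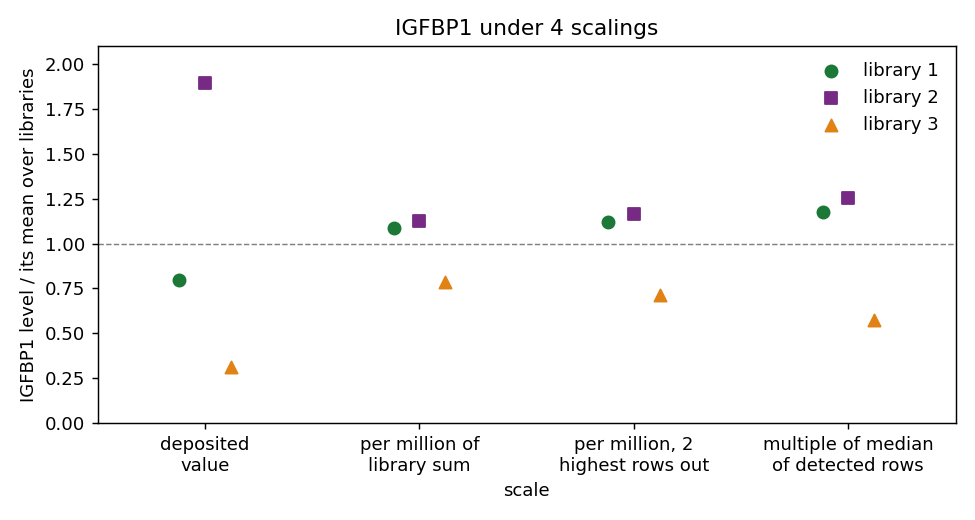
IGFBP1 level divided by its mean over the 3 libraries (y axis, no unit, from 0) on 4 scales (x axis), with 1 point per library. Libraries 1 and 2 lie close together on the 3 rescaled axes, and library 3 is the lowest on each scale.

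IGFBP3, the main carrier of IGFs in blood, was the second of the family. Its values were 2.3, 8.5 and 0 in libraries 1, 2 and 3 (3.6 ± 4.40, SD, n = 3). It was present in libraries 1 and 2, where it was higher than 94.1% and 96.8% of the rows above 0, and was listed at 0 in library 3. With IGFBP3 counted, 2 of the 8 rows (25%) reached 1 in at least 2 libraries, against 9.02% of all rows. Of the 480 rows at or above IGFBP3 in libraries 1 and 2, which include all higher rows, 25 (5.21%) were listed at 0 in library 3 and 80 (16.7%) were below 1 there.

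IGFBP7, which also binds insulin and is found in vessel walls and matrix, was high in library 1 only. It stood at 1.4, 0.3 and 0 (0.567 ± 0.737, SD, n = 3), an order unlike that of IGFBP1 and IGFBP3, which peaked in library 2. Of the 1627 rows that reached 1.4 in library 1, 38 (2.34%) were at 0.3 or less in library 2 and at 0 in library 3. The remaining binding proteins of the rule were at the lower limit of the file. IGFBP2, an abundant fetal binding protein, was listed at 0.1, 0 and 0.1, and IGFBP4, an inhibitor of IGF action that the protease PAPPA cleaves, at 0.1, 0.1 and 0.

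The rows spelled with a hyphen were low as well. IGFBP-5, a binding protein found in bone and muscle, had 0.2, 0.1 and 0.1. IGFBP-6, which prefers IGF2 to IGF1, had 0, 0.1 and 0.9, and was the only row of the 10 whose highest value lay in library 3 and above 0.1. Neither reached 1 in any library.

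The ligands and the receptor were low or listed at 0. IGF2, the fetal growth factor of the family, was at 0.4, 0.3 and 0.3 (0.333 ± 0.0577, SD, n = 3). It had little spread between libraries on the deposited scale and a 4.20-fold range in TPM-type units. That range equals the ratio of the sums of libraries 2 and 3, where IGF2 was listed at the same 0.3. IGF1 was listed at 0 in all 3 libraries. IGF1R, the signalling receptor for both ligands, was listed at 0.1, 0.1 and 0.

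**Figure D2:**
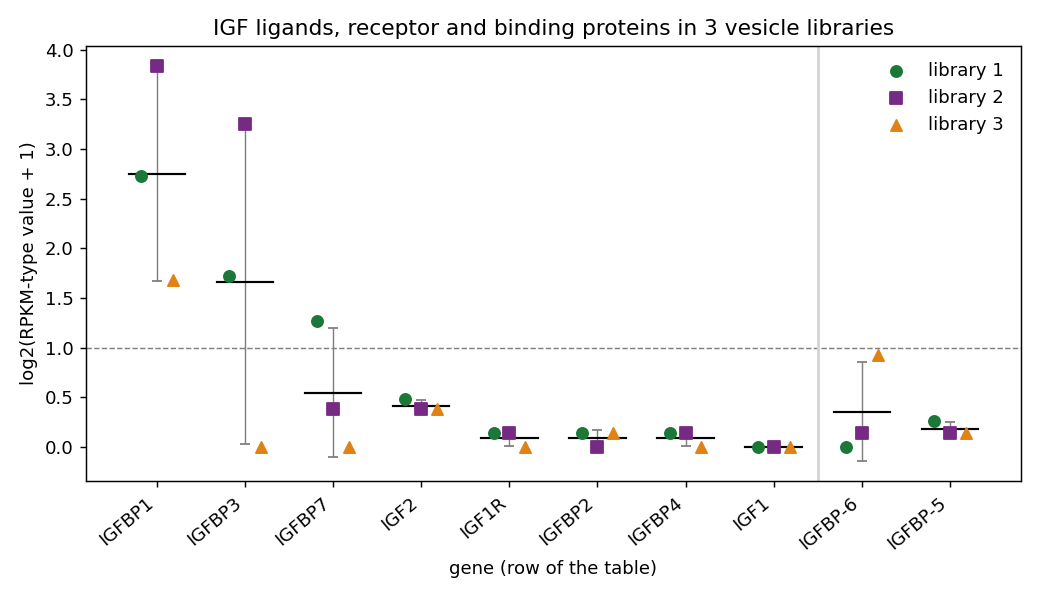
Level as log2(RPKM-type value + 1) (y axis) of the 8 rows of the rule, ordered by mean, and of 2 hyphenated rows right of the vertical line (x axis). Points are libraries, black bars the mean, grey bars the SD over 3 libraries, and the dashed line a value of 1. IGFBP1 is the only row with all 3 points above the line.

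In the order of mean levels, IGFBP1 came first, then IGFBP3, IGFBP7, IGF2, then IGF1R, IGFBP2 and IGFBP4 at an equal mean of 0.0667, and IGF1 last. The neighbours IGFBP1 and IGFBP3 differed by more than their spread, since the within-library difference in log2(value + 1) was 1.09 ± 0.55 (SD, n = 3) and positive in 3 of 3 libraries. IGFBP3 and IGFBP7 did not, at 1.11 ± 1.54, and neither did IGFBP7 and IGF2, at 0.13 ± 0.59 (SD, n = 3). IGF2 exceeded IGF1R in 3 of 3 libraries, by 0.32 ± 0.07 (SD, n = 3), with IGF2 at 0.4 or less in each. Among IGF1R, IGFBP2 and IGFBP4 no order could be made out. IGFBP4 exceeded IGF1 by 0.09 ± 0.08 (SD, n = 3), a step of the file's last decimal in 2 libraries. The rows were ordered by these same values, so the signs follow largely from the order. Setting a mean beside its SD is no test.

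IGFBP1 was set against each of the 6 other rows with a value above 0 in any library. Besides IGFBP3, the mean differences in log2(value + 1) were 2.20 ± 1.10 to IGFBP7, 2.33 ± 1.08 to IGF2, 2.65 ± 1.01 to IGF1R and to IGFBP4 and 2.65 ± 1.15 to IGFBP2 (SD, n = 3). IGFBP1 was the higher in 3 of 3 libraries in each of the 6 pairs, which restates its lead in every library and fixes the p-value. Every pair gave an exact two-sided sign-flip permutation p of 0.25 (adjusted p = 0.25 over 6 pairs), which is the smallest that 3 libraries allow, so no pair could pass a threshold of 0.05. IGFBP1 made up 56%, 58.8% and 84.6% of the summed value of the 8 rows in libraries 1, 2 and 3. The hyphenated rows are outside this sum. Counting them would lower the share of IGFBP1 most in library 3, where IGFBP-6 had 0.9 and the 8 rows summed to 2.6. IGFBP3 made up 23%, 37.6% and 0%.

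Rows of olfactory receptors, which conceptus cells are not known to use, gave a measure of the lowest values, chosen after the values were seen. Their median was 0.1 in each library, the same as the median over all rows of the table. IGFBP1 lay above all 476 olfactory receptor rows in libraries 1 and 2, and 0.840% of them reached its level in library 3. IGFBP3 was reached by 0.420% and 0% of them in libraries 1 and 2, and IGFBP7 by 1.47% in library 1 and 18.1% in library 2. IGF2 was reached by 17.4%, 18.1% and 15.8%, so its level was not separated from these rows. The 0.1 of IGF1R and IGFBP4 was reached by 68.9% and 75.4% in libraries 1 and 2, and that of IGFBP2 by 68.9% and 65.5% in libraries 1 and 3. The 0.9 of IGFBP-6 in library 3 was reached by 4.20%. Over the 8 rows the median of the mean levels was 0.2, against 0.133 over all rows.

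**Figure D3:**
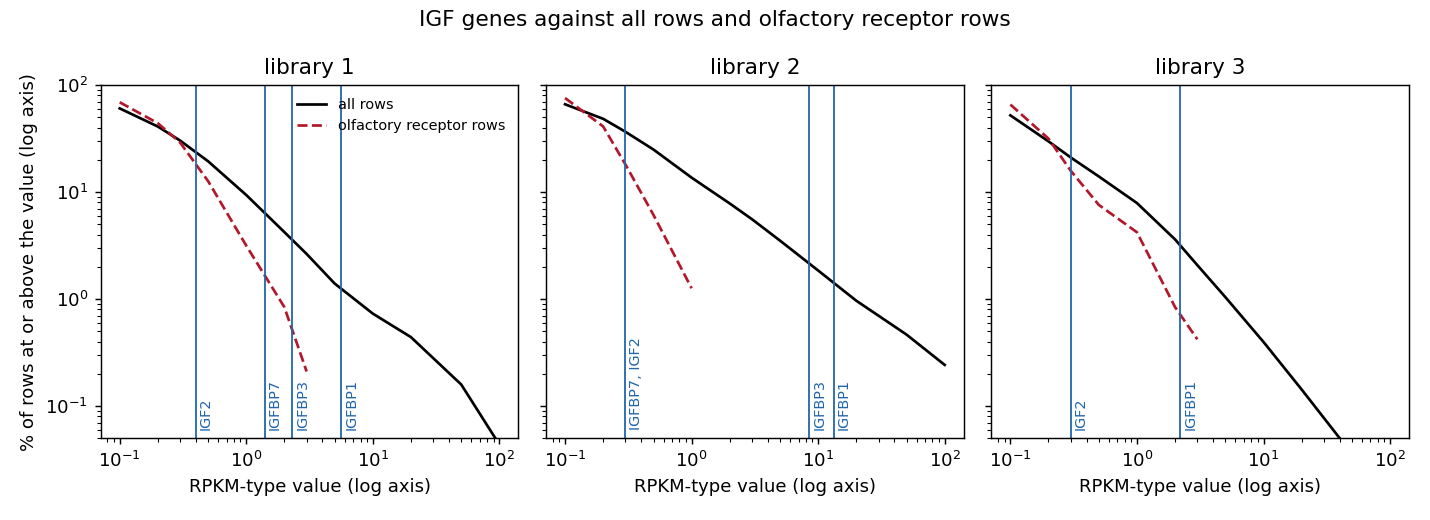
Percent of rows (y axis, log) at or above a given RPKM-type value (x axis, log), for all rows (solid) and for 476 olfactory receptor rows (dashed, ended at the last plotted value that any of them reached), with 1 panel per library and lines joining 12 values read from the table. Vertical lines mark IGFBP1, IGFBP3, IGFBP7 and IGF2 where they were above 0. IGFBP1 lies to the right of the dashed curve in libraries 1 and 2, and IGF2 on its upper part in all 3.

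The rows whose levels over the 3 libraries were most like IGFBP1 were GABARAP, CHCHD5, NDUFB9, HYPK and UBE2L3. Likeness was the Euclidean distance of log2(value + 1) over 3 libraries, among 728 other detected rows with a symbol. GABARAP, a ubiquitin-like protein of autophagosome membranes, was nearest at a distance of 0.16, with 6.1, 12.5 and 2.4. CHCHD5, a mitochondrial protein, followed at 0.25 with 4.6, 13.4 and 2, and NDUFB9, a subunit of respiratory complex I, at 0.26 with 5.5, 15.1 and 1.8. HYPK, a chaperone partner of huntingtin, lay at 0.28 with 4.5, 13.5 and 2, and UBE2L3, a ubiquitin-conjugating enzyme, at 0.28 with 5.6, 16.4 and 2.2. In all, 22 rows lay within a distance of 0.5.

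No row matched by symbol to other genes of the IGF axis was detected in all 3 libraries. Of 82 genes in 8 lists, 76 had a row, and 0 of these were detected, against 3.89% of all rows. The count depends on the symbols. RPS6 was scored on its named row (0.1, 0.2 and 0). A row without a symbol that is described as ribosomal protein S6 reached 67.5, 187.2 and 14.2 and was not counted. In at least 2 libraries 6 of the 76 (7.89%) reached 1, a share near the 9.02% of all rows. The median of their mean levels was 0.167, against 0.133 over all rows, and 48 of the 76 (63.2%) stayed below 0.5 in every library, as did 67.1% of all rows.

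The insulin receptor INSR, a relative of IGF1R, had 0.2, 0.2 and 0.3, the highest mean among other ligands and receptors. IGF2R, the clearance receptor for IGF2, had 0, 0.1 and 0. The protease PRSS23 had the highest mean in the list drawn up for IGFBP proteases and carriers, with 0.3, 1.1 and 0.3. Its place in the list does not show that it cleaves IGFBPs. PAPPA was at 0.5, 0.5 and 0.6, and PAPPA2, which cleaves IGFBP3 and IGFBP5, at 0.4, 0.4 and 0.5. IGF2BP1, an RNA-binding protein named for its binding to IGF2 mRNA, had 0.8, 1.3 and 0.3.

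Downstream of the receptor, the highest mean among rows matched by symbol belonged to RHEB, the small GTPase that activates mTOR. It had 8.8, 18.7 and 0.1, a mean of 9.2 ± 9.31 (SD, n = 3) that is above that of IGFBP1, and its value in library 3 was near 0 while that of IGFBP3 was listed at 0. The adaptor CRK (1.1, 1.1 and 0.6) and the tyrosine phosphatase PTPN11 (0.5, 2.2 and 0.1) shared the highest mean of the list of adaptors and docking proteins. NRAS, a RAS GTPase, led its own list with 0.9, 3.1 and 0.4. ITGB1, the integrin beta chain that pairs with the alpha chain ITGA5 to bind Arg-Gly-Asp motifs such as that of IGFBP1, had 0.2, 0.9 and 0.6. ITGA5 had 0.2, 0 and 0. Among secreted proteins with an IGFBP-like domain, CYR61, a matrix-associated protein, led with 0.1, 0.4 and 0.2.

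**Figure D4:**
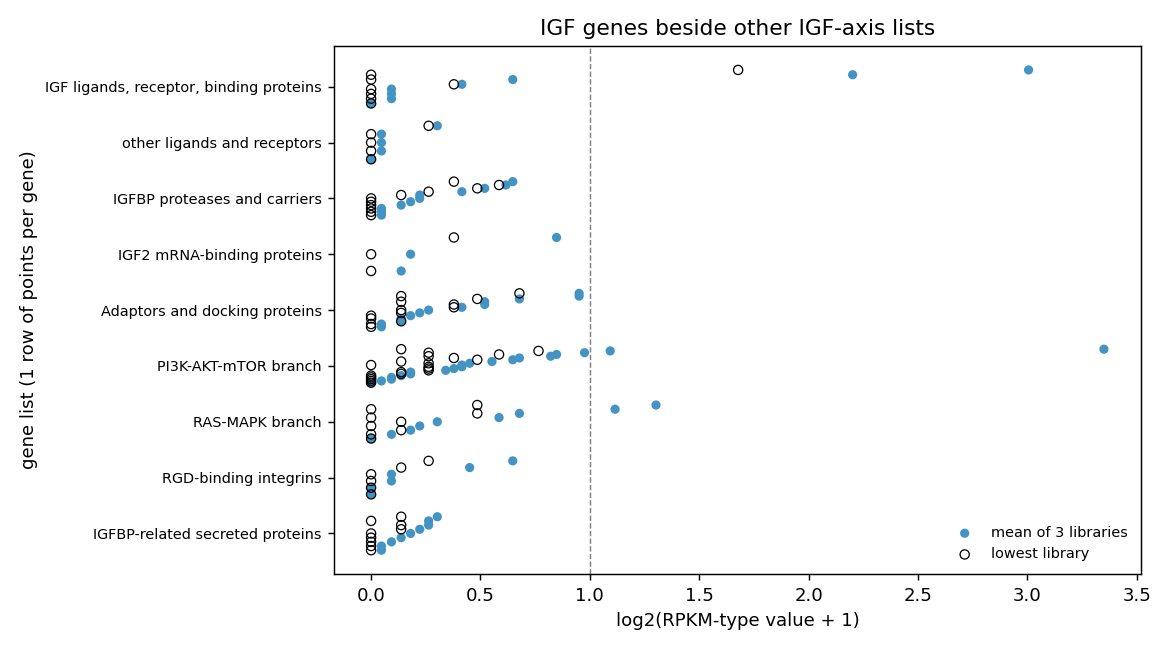
Mean over 3 libraries (filled) and lowest library (open) of each gene as log2(RPKM-type value + 1) (x axis), by gene list (y axis), with the dashed line at a value of 1. Rows were matched by symbol, and rows without a symbol are not plotted. Among those plotted, IGFBP1 is the only gene whose open point lies right of the line. The filled point of RHEB lies right of those of IGFBP1 and IGFBP3.

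Cell type markers were read beside these values. The share of rows detected was 16.7% for trophectoderm, 25% for endometrium, 6.67% for endoderm and 20% for epiblast. Over all rows of the table it was 3.89%. Each of these lists had only 1 or 2 rows detected, so the shares are coarse. Of 12 trophectoderm rows 2 were detected, KRT8 (26.3, 138.9 and 27.3), the keratin of simple epithelia, and EPCAM, an epithelial adhesion protein (3.4, 6.5 and 1.2), while the transcription factors GATA3 (0.9, 0.9 and 3) and ELF5 (1, 0.2 and 0.8) and the prostaglandin synthase PTGS2 (0.6, 4 and 0.2) reached 1 in 1 library each. HSD11B1 (1, 1.3 and 0) reached 1 in 2 libraries. CDX2, CDH1, PAG11, TFAP2A and TFAP2C stayed below 1, and GATA2 was listed at 0 in all 3 libraries. The trophectoderm rows summed to 34, 153.2 and 33.1. Interferon tau, the secreted signal of trophectoderm, was represented by TP-1 at 6.7, 26.2 and 4.7. The endometrial list, whose genes the conceptus may also express, summed to 44.8, 127.8 and 7.1, with 2 of 8 rows detected. It was carried by the galectin LGALS15 (18.8, 74.2 and 4.5) and the protease inhibitor CST6 (24.9, 49.1 and 1.1). GRP (0.4, 3.2 and 1.3) reached 1 in 2 libraries. MUC1, MSX1, OXTR and the steroid receptors of the uterus, PGR and ESR1, stayed below 1. The endometrial sum was highest in library 2 and lowest in library 3, as were IGFBP1 and IGFBP3. On the deposited scale the trophectoderm, mesoderm and blood sums and the whole summed value had the same order. The trophectoderm sums of libraries 1 and 3 were nearly equal, at 34 and 33.1, while the whole sums were 17480.7 and 9531.8. List sums were not rescaled to the whole sums, so a shared order does not show that a list followed IGFBP1 apart from them. The part of the endometrial genes in the levels of IGFBP1 and IGFBP3 was not tested.

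Among the 10 mesoderm rows 0 were detected, with VIM, an intermediate filament protein, at 3.4, 4.5 and 0.1 and the collagen COL1A2 and the receptor PDGFRB listed at 0 throughout, and the rows summed to 4.8, 6.7 and 2.5. The endoderm list had 1 of 15 rows detected, the apolipoprotein APOA1 (6, 10.3 and 6.3), and its sums of 9.7, 18.3 and 12.1 were lowest in library 1, unlike IGFBP1. These sums rest mainly on APOA1 and APOA2 (0.9, 5.4 and 2.9). Of the 15 rows, 11 stayed below 0.5 in every library, among them GATA4, GATA6, FOXA2, TTR and APOE. The epiblast list had 1 of 5 detected, SOX2 (1.5, 1 and 1.6), while POU5F1, NANOG, SALL4 and LIN28A stayed below 1. Epiblast sums were 2.3, 2 and 2.9, lowest in library 2 and highest in library 3. The blood list had 0 of 5 detected. The parts of these lists in the IGFBP values were not tested either.

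In the RefSeq gene table of the assembly ARS-UI_Ramb_v3.0, another build than that of the files, IGFBP1 and IGFBP3 are neighbours, as are IGFBP2 and IGFBP5. The first pair held the highest levels of the family and the second stayed at or below 0.2. The nearest other neighbours with a row did not share the level of the first pair. TNS3, next to IGFBP3, had 0.1, 0.1 and 0, and ADCY1, beyond IGFBP1, was listed at 0 in all 3 libraries. MRPL23, a mitochondrial ribosomal protein gene near IGF2, had 3, 11 and 0.2, while IGF2 itself had 0.4 at most.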

How the data were processed

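Messenger RNA of vesicles from 3 libraries of sheep conceptus medium was made from 5 ng of total RNA and sequenced as read pairs of 50 bp, per the labels' protocols. The authors deposited 1 table of RPKM-type values per gene with 1 decimal. The file names no unit, and RPKM was inferred from the values, so FPKM would look alike. Oar_v3.1 is the genome build named, per the submitters' processing notes. Aligner, counting program and annotation: not given in the sources used here. Columns were matched to libraries by title. Scaling to gene length and depth fixes no library sum, so each library was also rescaled. Such rounding leaves values near 0.1 coarse.

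From the table were computed levels, SDs, percentiles, detection counts at 1 or more, and differences of log2(value + 1), which understate folds of low genes, with exact sign-flip permutation tests adjusted by Benjamini-Hochberg, in Python 3.11.15 (numpy 2.4.6, pandas 2.3.3, matplotlib 3.10.9). The pseudocount was 1. Tests were checked on fixed inputs and the step estimate on simulated data, whose steps lay only inside the range searched. The genes and lists were chosen with earlier results of these data known. Named genes were all rows of the rule, the highest of each list of IGF-axis genes and the 5 rows most like IGFBP1, and others were named after their values were seen. Alternatives were other thresholds, pseudocounts, scalings and leaving out each library. RefSeq's table matched 10 of the 10 symbols and 0 Ensembl identifiers, and gave names and neighbours only. No sequence is shown. Some genes of the lists are counted but not reported here by name.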

Additional observations from a re-analysis of the deposited data

How the results depend on the processing

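The mean of IGFBP1 was 7.03 as deposited, 6.58 with equal library sums and 6.41 with equal medians of detected genes. It was 6.50 with equal sums after leaving out the 2 highest rows, a setting chosen after seeing the data. All lie within 1 SD of 7.03, but with an SD of 5.69 that limit is wide. Leaving out 1 library gave 3.9 to 9.45. IGFBP1 was higher than each of the 6 other rows within every library, so the pseudocounts, equal sums and left-out libraries tried could not turn these differences. Its mean percentile ranged from 95.9 to 98.1. The number of the 8 rows detected was 1 at thresholds of 0.5 and 2 and with equal sums, but 2 when 1 or more in at least 2 libraries sufficed, and 1 to 2 when 1 library was left out. The added row was IGFBP3, which passed without library 3. Of the other IGF-axis genes, matched by symbol, 0 were detected at a threshold of 2 and with equal sums, 4 at 0.5, 6 with at least 2 libraries and 1 to 3 with 1 library left out. These were 2 without library 1, 1 without library 2 and 3 without library 3. The looser rules and fewer libraries set the higher counts by construction. Of all rows of the table, 3.89% reached 1 in all 3 libraries and 9.02% in at least 2. No such share is given for the other rules, so their counts are not read as a result about these genes. With 1 group, no replicate number is shared between groups and no replicate block was fitted. Rounding limits all values near 0.1, which is the last decimal of the file, and depth limits them as well in shorter genes.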

Other observations

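Some further rows around insulin were read after their values were seen. INSIG2, a sterol-dependent regulator in the endoplasmic reticulum, was detected in all 3 libraries with 3.1, 2.1 and 1.4 (2.2 ± 0.854, SD, n = 3). The row RPS6, the ribosomal protein that S6 kinase phosphorylates downstream of mTOR, had 0.1, 0.2 and 0, but a row without a symbol that is described as 40S ribosomal protein S6 (ENSOARG00000014242) had 67.5, 187.2 and 14.2. The kinase RPS6KB1 had 0.2, 1.7 and 1.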
